A study of Mus musculus with 6 samples.

Results

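The genes described here encode or control SREBP2, a transcription factor for genes of cholesterol synthesis, or serve the uptake of cholesterol from LDL particles. They are 8 listed members of the 55471 genes in the deposited tables: Srebf2, Scap, Insig1, Insig2, Mylip, Npc1, Npc2 and Stard4. Each was found by its gene ID through the mouse GENCODE M21 annotation, and all 8 passed the filter on low counts. RNA was measured in OT-I T cells, CD8+ T cells whose receptor recognises a peptide of ovalbumin. The cells came from OT-I:Rosa26-Cas9 donors on a C57BL/6J background and were transduced with a lentiviral vector that carries a CD90.1 reporter and 1 guide. The guide was directed against Elovl1, a fatty acid elongase of very long chains, in the sgElovl1 group, and was non-targeting in the sgNT group. Cas9, the vector, the tumour and the treatment were therefore shared by both groups. Recipients bore orthotopic tumours of KPC_OVA, an ovalbumin-expressing pancreatic ductal adenocarcinoma (PDAC) line, and were treated with anti-PD-1 from the day after adoptive cell transfer (ACT). Mice in the study were 6 to 12 weeks old. CD90.1+ cells were sorted from the primary tumour 7 days after ACT, with 3 libraries in each group. Each library came from its own mouse or mice, and the RNA of sgElovl1 libraries 1 and 2 was pooled from 2 tumours each. The sort selects transduced cells and not edited ones, so unedited cells may remain in the sgElovl1 libraries.

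SREBP2, the product of Srebf2, is made as an inactive membrane protein. SCAP escorts it from the endoplasmic reticulum to the Golgi, where proteases release the part that enters the nucleus, and INSIG1 and INSIG2 hold SCAP back when sterols are plentiful. Released SREBP2 switches on genes of cholesterol synthesis and uptake, Insig1 among them, which makes Insig1 a feedback target of the pathway. MYLIP is a ubiquitin ligase that sends lipoprotein receptors to degradation and is itself a target of the oxysterol-sensing LXR receptors. NPC2 and NPC1 pass cholesterol out of the lysosome in turn, and STARD4 carries sterol between membranes in the cytosol. Activated T cells draw on this pathway because dividing cells need cholesterol for new membrane.

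The promoter stretches of Insig1, Insig2 and Srebf2 are shown because the INSIG paralogues moved differently and Srebf2 encodes the factor of the pathway. They come from RefSeq (GRCm38.p6), are written 5′ to 3′ on the gene's strand, and end before the first annotated start of the gene. Capitals mark exact matches on either strand to CCAAT (the NF-Y box), GGGCGG (the Sp1 box), CACGTG (an E-box) or TCACNCCA, the sterol regulatory element TCACNCCAC without its last base.
Insig1, chr5:28071162-28071362, + strand: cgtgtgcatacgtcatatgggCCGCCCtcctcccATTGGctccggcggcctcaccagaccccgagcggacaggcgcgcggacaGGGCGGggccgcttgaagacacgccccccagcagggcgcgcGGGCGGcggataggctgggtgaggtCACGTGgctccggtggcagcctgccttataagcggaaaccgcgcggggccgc
Insig2, chr1:121332590-121332839, - strand: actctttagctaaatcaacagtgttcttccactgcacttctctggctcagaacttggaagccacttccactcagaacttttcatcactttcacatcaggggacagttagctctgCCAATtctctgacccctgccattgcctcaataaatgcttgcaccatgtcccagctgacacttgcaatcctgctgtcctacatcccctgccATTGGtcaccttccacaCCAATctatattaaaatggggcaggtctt
Srebf2, chr15:82147019-82147180, + strand: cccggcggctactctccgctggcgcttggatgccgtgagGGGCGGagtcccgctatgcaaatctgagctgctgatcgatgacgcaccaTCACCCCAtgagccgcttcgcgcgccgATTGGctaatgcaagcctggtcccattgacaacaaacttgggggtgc
The Insig1 stretch of 201 bases held 1 CCAAT, 3 GGGCGG and 1 CACGTG, whereas the Insig2 stretch of 250 bases held 3 CCAAT and no match to the others. That Insig2 stretch lies before 1 of its 3 starts, and the windows of the other 2 starts each held 1 GGGCGG and no CCAAT. The Srebf2 stretch of 162 bases held 1 CCAAT, 1 GGGCGG and 1 TCACNCCA, the shortened motif having been added after the sequences were seen.

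RefSeq windows from 250 bases before to 50 bases after the start were matched for 6 of the 8 members (9 windows, several starts for Insig2 and Scap), and none was matched for Npc1 and Stard4. The full TCACNCCAC was in none of these 9 windows, and 1.24% of all 32851 promoter windows held it. TCACNCCA, which the full element contains, was in 4.36% of all windows and, among the members, only in that of Srebf2. CACGTG was in 7.15% of all windows and, among the members, in those of Insig1, starting 101 bases before the start, and Scap. CCAAT (37.4% of all windows) and GGGCGG (35.7%) were frequent among all windows. These matches describe the letters and show nothing about binding.

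Libraries held between 21980273 and 26165380 expected counts. Elovl1, the targeted gene, had 81.5, 76.6 and 95.4 CPM (counts per 1000000 of the library, TMM-normalised) in sgElovl1 libraries 1 to 3 and 283, 280 and 255 in sgNT libraries 1 to 3 (log2 fold change -1.69, edgeR adjusted p = 8.71e-05), and the groups did not overlap. Elovl1 overlaps the end of Cdc20 on the other strand (88.3 to 117 CPM), and as the strand setting of the counting is not given, part of its reads may come from Cdc20. The 7 CD8 T cell markers summed to between 9605 and 10354 CPM in sgElovl1 and between 11671 and 12195 in sgNT (1 of the 7 rose and 3 fell), while Cd4 stayed at or below 1.15 CPM. In a principal component analysis the first component (44.7% of variance) separated the groups and the second (29.1%) set library 3 of both groups apart from the others. The 6 markers of tumour epithelium, keratins mainly, summed to 303 CPM in sgElovl1 library 3 and 946 in sgNT library 3, against 15.1 to 39.2 in the other 4 libraries. The 12 macrophage and monocyte markers summed to 104, 152 and 299 CPM in sgElovl1 and to 43.6, 62.2 and 63.8 in sgNT. Of the 10 tested, 9 had a positive log2 fold change and 3 rose (Adgre1, C1qa and Fcgr1). These 3 were at or below 0.704 CPM in each sgNT library. They passed the filter on low counts only through the sgElovl1 libraries, so their calls followed largely from the filter. Adgre1, a defining macrophage marker, was at 0 in each sgNT library. Cd68 lay the other way, at 27.5, 29.0 and 39.4 CPM in sgElovl1 and 38.3, 46.1 and 36.7 in sgNT. Without Lyz2 and Cd68 the macrophage markers summed to 18.5, 40.0 and 101 CPM in sgElovl1 and 5.22, 8.54 and 15.9 in sgNT. The 6 dendritic cell and MHC class II markers summed to 140 to 464 CPM in sgElovl1 and 96.9 to 125 in sgNT. Neutrophil, acinar, fibroblast and B cell markers each summed to no more than 4.62 CPM. The part of these cells in the results below was not tested, and values without library 3 of both groups are given beside them.

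Of the 8 members, Insig1 and Scap rose in sgElovl1 cells, Npc2 fell, and Srebf2, Insig2, Mylip, Npc1 and Stard4 did not pass the test. The test was edgeR's quasi-likelihood test with Benjamini-Hochberg adjustment over 12546 genes at an adjusted p under 0.05. The 2 that rose compare with 8.64% of all tested genes called higher and the 1 that fell with 5.13% called lower, 13.8% being called in all. The same 3 members were those whose groups did not overlap, and 37.1% of all tested genes had groups that did not overlap, so the count of 3 in 8 was near the background. The median log2 fold change was 0.22 over the members and -0.0041 over all tested genes. In a bulk sample, fewer cells of a type and less RNA per cell cannot be told apart.

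**Figure D1:**
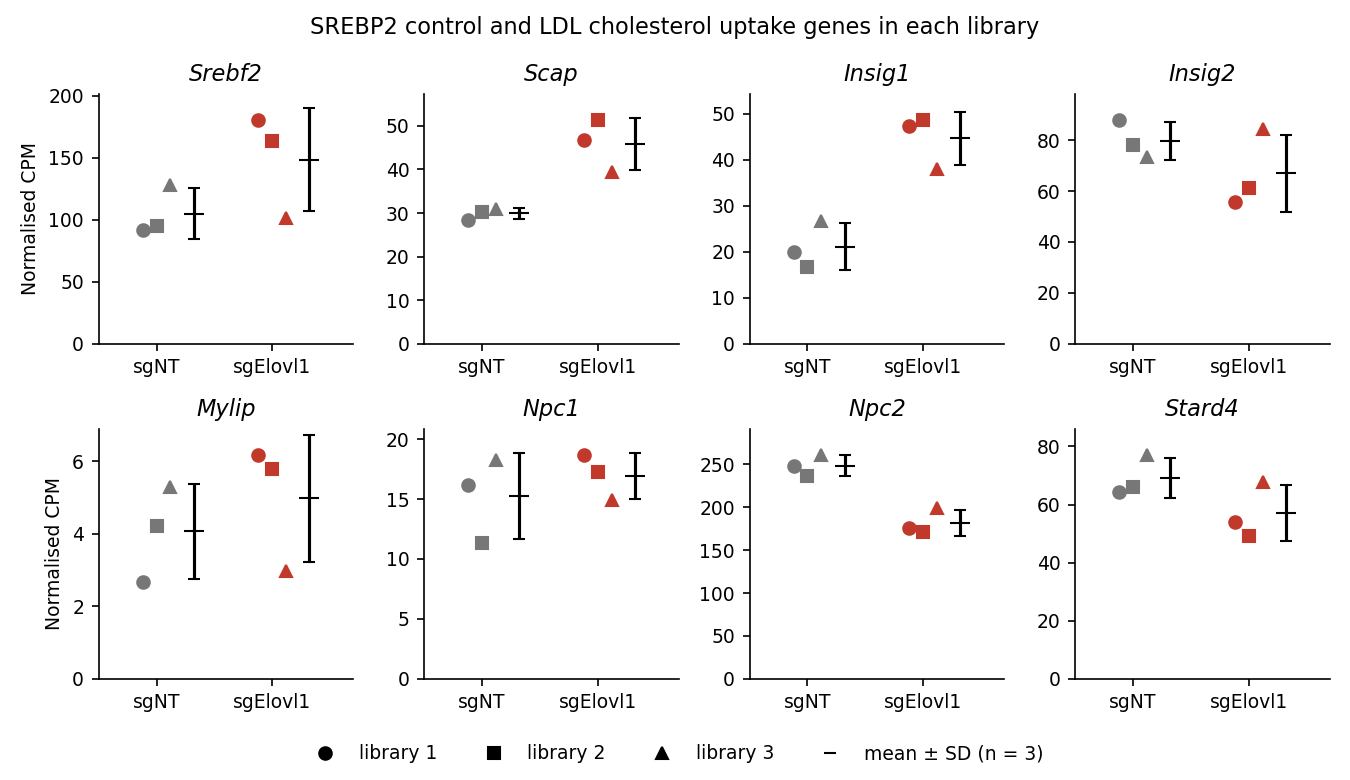
Normalised CPM of the 8 genes in each library, by group. Symbols mark the library number, and the black dash and bar give the mean and SD (n = 3 per group). Every sgElovl1 library lies above every sgNT library for Insig1 and Scap and below for Npc2, and the groups overlap for the other 5 genes.

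Srebf2 (chr15:82147181-82205379, GRCm38, + strand), the transcription factor itself, stood at 180, 164 and 101 CPM in sgElovl1 libraries 1 to 3 and at 91.6, 95.003 and 128 in sgNT libraries 1 to 3. The first and second sgElovl1 libraries were the highest of the 6, but library 3 fell inside the sgNT range. The log2 fold change was 0.50 (SE 0.224, 95% confidence interval -0.01 to 1.01), which did not pass (adjusted p = 0.165). Srebf2 passed only in fits without sgElovl1 library 3. Without sgNT library 3 alone the value was 0.68, which did not pass (adjusted p = 0.0972). Without sgElovl1 library 3 the value was 0.71 (adjusted p = 0.0144), without sgElovl1 library 1 it was 0.34 (adjusted p = 0.450), and without library 3 of both groups it was 0.88 (adjusted p = 0.000213). Mir33, the miRNA encoded within Srebf2, had no count in any library. The libraries were prepared for mRNA, so this does not tell whether the miRNA was present.

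Scap (chr9:110333288-110384950, + strand), the escort of SREBP2, rose 1.53-fold. It stood at 46.7, 51.3 and 39.4 CPM in sgElovl1 and at 28.5, 30.3 and 30.9 in sgNT, so the groups did not overlap and the sgElovl1 libraries varied more (45.8 ± 5.98 against 29.9 ± 1.29, SD, n = 3 each). The log2 fold change was 0.62 (SE 0.125, 95% confidence interval 0.34 to 0.89, adjusted p = 0.0120). The call was lost with an offset that removes the trend of counts with gene length (0.40, adjusted p = 0.0554). It was also lost without sgElovl1 library 1 (adjusted p = 0.0596), without sgElovl1 library 2 (0.0880), without sgNT library 1 (0.0514) and without sgNT library 2 (0.0620). Without library 3 of both groups it was 0.74 (adjusted p = 0.00114). In TPM, transcripts per 1000000 after scaling for gene length, the groups were apart as well, at 15.2, 19.9 and 14.9 TPM in sgElovl1 and 8.86, 9.45 and 8.79 TPM in sgNT. The abundance-weighted length of Scap was 3507, 3082 and 2954 bases in sgElovl1 and 3491, 3675 and 3599 in sgNT. A shorter length raises TPM, and the shares of its 10 annotated transcripts, coding and non-coding, were not resolved.

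Insig1 (chr5:28071363-28078662, + strand), the retention factor that is itself a target of SREBP2, showed the largest change of the members, a 2.11-fold rise. It stood at 47.3, 48.6 and 38.1 CPM in sgElovl1 libraries 1 to 3 and at 19.9, 16.8 and 26.7 in sgNT libraries 1 to 3. The lowest sgElovl1 library, library 3, still lay above the highest sgNT library, which was also library 3. The log2 fold change was 1.08 (SE 0.174, 95% confidence interval 0.70 to 1.46, adjusted p = 0.00431). Insig1 passed under each of the 18 alternatives in processing, the largest adjusted p being 0.0383 when 1 library was left out, and it reached 1.38 without library 3 of both groups. Insig1 has a coding transcript of 2697 bases and a retained-intron transcript of 757 bases. From the deposited abundance-weighted length, the coding transcript made up 94.2%, 92.7% and 85.4% of Insig1 molecules in sgElovl1 and 92.1%, 98.0% and 98.9% in sgNT. The coding transcript alone was thus at 20.3, 21.6 and 15.4 TPM in sgElovl1 and at 8.13, 7.31 and 10.4 TPM in sgNT, and these groups did not overlap.

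Insig2 (chr1:121304353-121332589, - strand), the paralogue of Insig1, did not rise with it. Its levels were 55.9, 61.0 and 84.3 CPM in sgElovl1 and 87.8, 77.9 and 73.3 in sgNT. Libraries 1 and 2 of sgElovl1 were the lowest of the 6, whereas sgElovl1 library 3 lay within the sgNT range. The log2 fold change was -0.25 (SE 0.156, 95% confidence interval -0.59 to 0.09, adjusted p = 0.290). Without sgElovl1 library 3 it was -0.45 (adjusted p = 0.0278), and without library 3 of both groups -0.51 (adjusted p = 0.00475). In the other direction, it shrank to -0.13 without sgElovl1 library 1 (adjusted p = 0.683) and to -0.16 without sgNT library 1 (0.588).

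The balance of the INSIG paralogues differed accordingly. Per length, Insig2 was the more abundant in every library: the ratio of Insig1 to Insig2 TPM was 0.419, 0.465 and 0.250 in sgElovl1 and 0.104, 0.113 and 0.177 in sgNT. All sgElovl1 ratios were above all sgNT ratios, by 1.52 on the log2 scale on average. An exact two-sided permutation test gave p = 0.1, the smallest that 3 against 3 libraries allow, and 0.15 after adjustment over the 3 ratios tested. The sum of the paralogues, examined after the values were seen, was 78.8 ± 9.84 TPM in sgElovl1 and 79.0 ± 12.7 TPM in sgNT (SD, n = 3 each), and Insig1 made up 27.1% ± 6.22 of it in sgElovl1 and 11.5% ± 3.06 in sgNT. By contrast, the ratio of Insig1 to Scap overlapped between the groups, at 1.42, 1.17 and 1.21 in sgElovl1 and 0.995, 0.789 and 1.20 in sgNT (difference 0.37 on the log2 scale, exact permutation p = 0.2, adjusted p = 0.2).

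**Figure D2:**
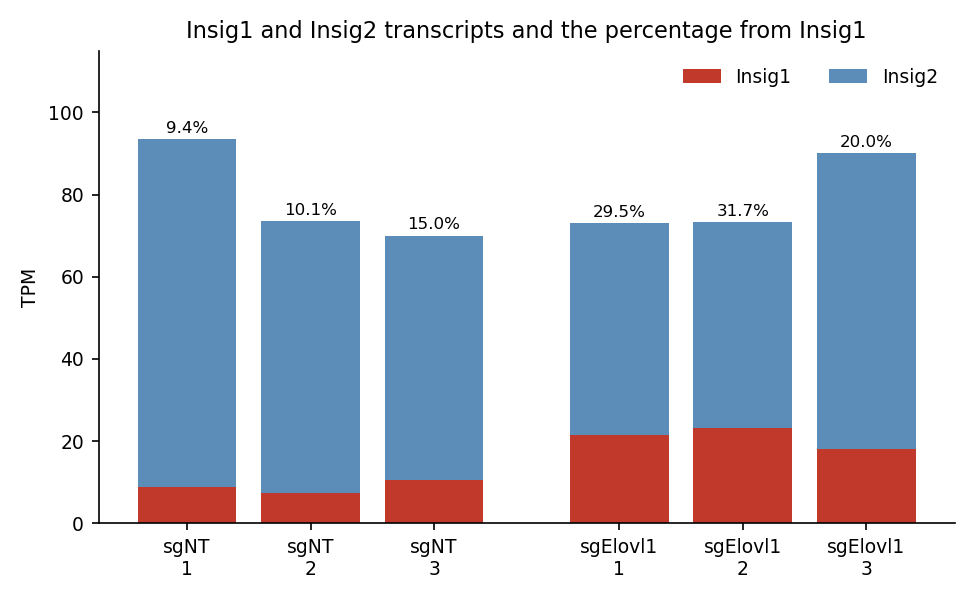
TPM of Insig1 (red) and Insig2 (blue) stacked for each library, with the percentage of the sum that came from Insig1 above each bar. The sums overlap between the groups, while Insig1 makes up 20.01% to 31.7% of the sum in sgElovl1 and 9.42% to 15.05% in sgNT.

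Mylip (chr13:45389742-45412022, + strand), the ligase that removes lipoprotein receptors, was the least abundant member, with 63 to 160 counts in a library. It stood at 6.16, 5.79 and 2.97 CPM in sgElovl1 and at 2.68, 4.21 and 5.30 in sgNT, and the groups overlapped across most of their ranges. Its log2 fold change was 0.29 with a wide 95% confidence interval of -0.43 to 1.02 (adjusted p = 0.574). Single libraries moved this value in both directions. It was 0.09 without sgNT library 1 (adjusted p = 0.900), 0.11 without sgElovl1 library 1 (0.905) and 0.17 without sgElovl1 library 2 (0.846). It was 0.55 without sgElovl1 library 3 (adjusted p = 0.208), 0.55 without sgNT library 3 (0.336) and 0.79 without library 3 of both groups (0.0487). The deposited length equalled that of the 3065-base transcript in every library but sgElovl1 library 3, where the shorter transcript of 1954 bases brought the share of the longer one to 71.4%.

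Npc2 (chr12:84754562-84773152, - strand), the soluble lysosomal protein that hands cholesterol to NPC1, was the member that fell. It stood at 176, 171 and 199 CPM in sgElovl1 and at 248.6, 237 and 261 in sgNT, and the groups did not overlap. The means were 182 ± 15.03 and 248.7 ± 11.9 (SD over 3 libraries each). This gave a log2 fold change of -0.45 (SE 0.110, 95% confidence interval -0.69 to -0.21, adjusted p = 0.0236). The call was lost without sgElovl1 library 1 (adjusted p = 0.0991), without sgElovl1 library 2 (0.142) and without sgNT library 1 (0.0737), 2 (0.0697) or 3 (0.0573). It was also lost on log2(TPM + 1) with limma (-0.36, adjusted p = 0.0707), and it was -0.49 without library 3 of both groups (adjusted p = 0.00282). In TPM the groups were again apart, at 61.9, 62.3 and 68.2 in sgElovl1 and 83.4, 83.0 and 81.7 in sgNT. Among the CD8 T cell markers, Cd8a (-0.45), Cd8b1 (-0.49) and Trac (-0.55) fell by a like amount and Cd3e (0.40) rose. Of the 10 tested macrophage markers, 9 had a positive log2 fold change, while Cd68 had -0.34 (adjusted p = 0.159). The 3 of them that passed were at or below 0.704 CPM in each sgNT library and passed the filter only through sgElovl1. The part of these differences in the fall of Npc2 was not tested.

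Npc1, the membrane partner of NPC2 on chromosome 18, stood at 18.6, 17.2 and 14.9 CPM in sgElovl1 and at 16.1, 11.3 and 18.3 in sgNT. The groups overlapped, and the log2 fold change of 0.15 (95% confidence interval -0.26 to 0.56, adjusted p = 0.607) turned to -0.16 with an offset for gene length and to -0.01 without sgNT library 2. It was 0.32 without sgNT library 3, 0.23 without sgElovl1 library 3 and 0.08 without sgElovl1 library 1. Npc1 overlaps the 3′ end of Rmc1 on the other strand, which was at 83.6 to 116 CPM, and without a known strand setting its counts are uncertain. The ratio of Npc1 to Npc2 TPM was 0.0733, 0.0627 and 0.0588 in sgElovl1 and 0.0517, 0.0412 and 0.0583 in sgNT. The groups were only just apart, and the difference of 0.37 on the log2 scale gave an exact permutation p = 0.1, or 0.15 after adjustment over the 3 ratios.

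Stard4, the cytosolic sterol carrier and also on chromosome 18, stood at 54.1, 49.3 and 67.7 CPM in sgElovl1 and at 64.4, 66.0 and 76.9 in sgNT. Library 3 was the highest of its group in both groups, and sgElovl1 library 3 lay within the sgNT range. Its log2 fold change was -0.28 (SE 0.139, 95% confidence interval -0.58 to 0.03, adjusted p = 0.189). It passed without sgElovl1 library 3 (-0.42, adjusted p = 0.0369) and without library 3 of both groups (-0.34, adjusted p = 0.0277). It shrank to -0.18 without sgElovl1 library 2 (adjusted p = 0.527) and to -0.18 without sgNT library 3 (0.396).

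Library 3 thus stood apart for most members. Between the libraries numbered 3, the log2 difference of sgElovl1 from sgNT was -0.34 for Srebf2, against 0.98 and 0.79 between the libraries numbered 1 and 2. For Insig1 it was 0.51, against 1.25 and 1.54, and for Insig2 it was 0.20, against -0.65 and -0.35. Mylip (-0.83, against 1.20 and 0.46) and Npc1 (-0.29, against 0.21 and 0.61) also turned sign, whereas Npc2 had -0.39, -0.50 and -0.47 in libraries 3, 1 and 2. With library 3 of both groups left out, 4 members were called higher (Srebf2, Scap, Insig1 and Mylip) and 3 lower (Insig2, Npc2 and Stard4), but 1947 genes of the whole table were then called higher and 2039 lower. Both remaining sgElovl1 libraries were pools of 2 tumours and both remaining sgNT libraries came from 1. Leaving out only sgElovl1 library 3 keeps the same 2 pools against sgNT libraries of 1 tumour each. In every value given without sgElovl1 library 3, alone or together with sgNT library 3, group and pooling therefore cannot be told apart.

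**Figure D3:**
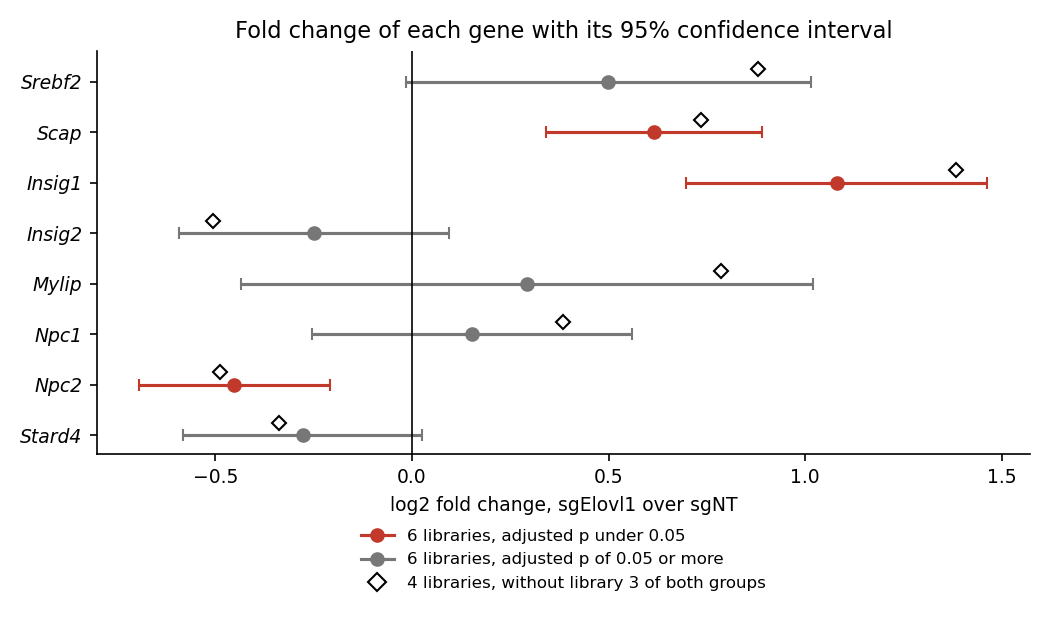
Log2 fold change of sgElovl1 over sgNT for each gene, from all 6 libraries with the 95% confidence interval (circles, red where the adjusted p was under 0.05) and without library 3 of both groups (diamonds). Each diamond lies farther from 0 than its circle, and the intervals of Insig1, Scap and Npc2 do not reach 0.

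Levels between genes were compared per length, in TPM. In sgNT cells Npc2 was the most abundant member (82.7 ± 0.879 TPM), followed by Insig2 (70.1 ± 13.1), Srebf2 (42.9 ± 4.83) and Stard4 (40.1 ± 1.91), all SD, n = 3. Far below lay Scap (9.03 ± 0.363), Insig1 (8.94 ± 1.54), Npc1 (4.16 ± 0.682) and Mylip (1.45 ± 0.439). The libraries of Npc2 and Insig2 overlapped in range, as did those of Srebf2 and Stard4 and those of Scap and Insig1, while the other neighbours were apart. In sgElovl1 cells the order was Npc2 (64.1 ± 3.55 TPM), Srebf2 (58.7 ± 12.4), Insig2 (57.9 ± 12.4), Stard4 (35.2 ± 5.24), Insig1 (20.95 ± 2.65), Scap (16.6 ± 2.81), Npc1 (4.15 ± 0.342) and Mylip (1.93 ± 0.618). There the ranges of Npc2, Srebf2 and Insig2 ran into one another, and those of Insig1 and Scap overlapped. Insig1 and Scap therefore remained in the middle of the order in both groups, between Stard4 and Npc1.

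**Figure D4:**
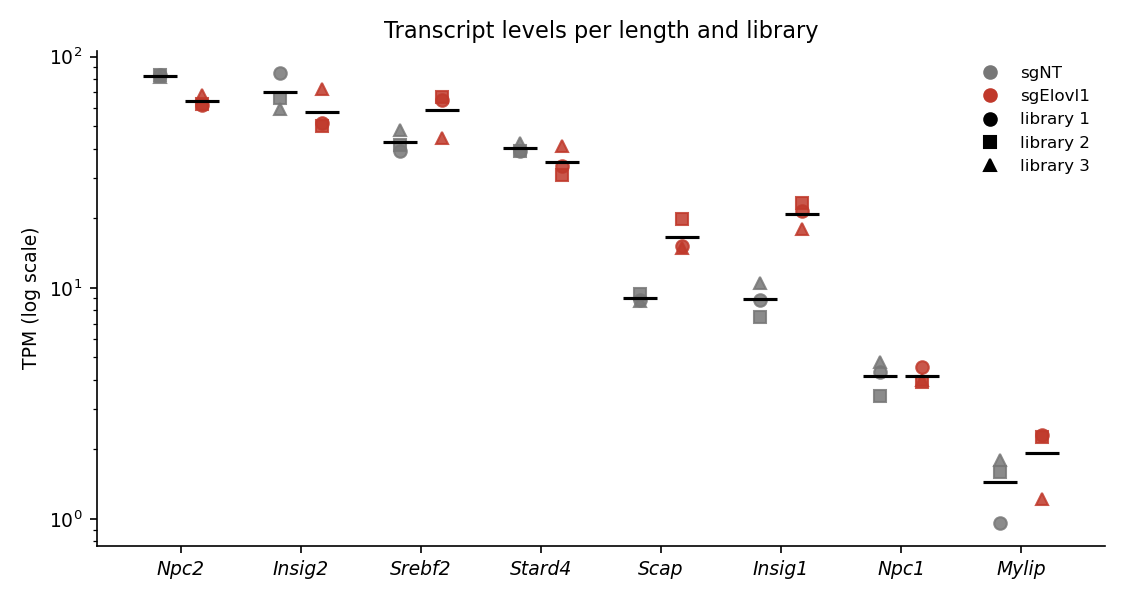
TPM (log scale) of the 8 genes, in the order of their mean in sgNT. Symbols mark the library number and lines the mean of each group (n = 3). Scap and Insig1 sit near 9 TPM in sgNT and between 14.9 and 23.3 TPM in sgElovl1.

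Around the members, 76 genes in 6 lists were followed, of which 75 were tested, 4 rose and 5 fell (9 in all, against the 13.8% called over the whole table). Without library 3 of both groups 28 passed. Calls over the whole table grew as well in that fit, from 1084 to 1947 higher and from 643 to 2039 lower, so the growth was not particular to the lists. The lists gave no common direction: their median log2 fold changes ran from -0.18 to 0.37.

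Of 15 genes of SREBP processing, 2 rose and 1 fell (median 0.18). Sec24c and Sec24d, coat proteins of the vesicles that leave the endoplasmic reticulum, rose. Sec24c stood at 153, 156 and 142 CPM in sgElovl1 and 83.9, 84.5 and 102 in sgNT (log2 fold change 0.74, adjusted p = 0.00387), and it passed whichever library was left out. Sec24d rose by 0.45 (adjusted p = 0.0275), a call lost with the offset for gene length (adjusted p = 0.283) and without sgElovl1 library 1 (0.103) or 2 (0.101) or sgNT library 1 (0.0546) or 2 (0.0990). The gene listed as 2410131K14Rik, which RefSeq names Spring1 and whose product is a positive regulator of the pathway, fell by 0.58 (adjusted p = 0.0184). Its call was lost without sgElovl1 library 1 (0.0829) or 2 (0.105) and without sgNT library 2 (0.0815). The proteases that release SREBP2 did not pass (Mbtps1 0.19, adjusted p = 0.252, and Mbtps2 0.51, adjusted p = 0.113), nor did Srebf1, which encodes the related factor SREBP1 (0.06, adjusted p = 0.838).

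Of 13 genes of the ubiquitin machinery that turns INSIG proteins over, 1 rose and 1 fell (median -0.14). Sel1l, the scaffold of an endoplasmic reticulum ligase complex, stood at 82.2, 77.3 and 94.7 CPM in sgElovl1 and 56.1, 51.6 and 51.9 in sgNT (0.67, adjusted p = 0.00583), and it passed whichever library was left out. Ube2g2, a ubiquitin-conjugating enzyme, fell by 0.41 (adjusted p = 0.0468), but not with the library number as a term of the fit, the replicate block (adjusted p = 0.0642). It passed in only 1 of the 6 fits with a library left out (without sgElovl1 library 3), the adjusted p rising to 0.188 without sgElovl1 library 1.

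Of 8 MYLIP partners and lipoprotein receptors, none rose and 1 fell (median 0.13). Ube2d1, a conjugating enzyme that works with MYLIP, fell by 0.36 at the edge of the threshold (adjusted p = 0.04997). It did not pass with the replicate block (0.0722) or in any fit with a library left out (up to 0.211). Lrp8 had 0.49 (adjusted p = 0.0981), and Vldlr and Lrp1 were at or below 2.77 CPM in each library. Of 5 tested LXR genes out of 6 listed, Rxrb, a partner of LXR, fell by 0.42 (adjusted p = 0.0394). The call was lost in 5 of 6 fits with a library left out, up to 0.147 without sgElovl1 library 1, and held without sgNT library 3. The LXR receptors themselves did not pass: Nr1h2 had -0.09 (adjusted p = 0.673), and Nr1h3, at or below 0.656 CPM in each library, had 0.68 (adjusted p = 0.496).

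Of 16 genes of lysosomal export and sterol transfer, 1 rose and none fell (median -0.18). Gramd1a, which carries cholesterol from the plasma membrane to the endoplasmic reticulum, stood at 346, 313 and 257 CPM in sgElovl1 and 201, 169 and 147 in sgNT (0.82, adjusted p = 0.00671), a call lost only without sgNT library 2 (adjusted p = 0.0573) among the fits with a library left out. Of the 16, 5 had a positive and 11 a negative value. Of 18 enzymes of sterol synthesis, none rose and 1 fell (median 0.09). Fdps, which makes farnesyl diphosphate, stood at 161, 179 and 182 CPM in sgElovl1 and 214, 222 and 308 in sgNT (-0.51, adjusted p = 0.0410). Its call was lost in 5 of 6 fits with a library left out, up to 0.151 without sgElovl1 library 1, and held without sgElovl1 library 3. Without sgNT library 3, its highest, the value shrank to -0.31 (adjusted p = 0.1004). Of the enzymes that did not pass, those whose groups did not overlap lay in both directions: Hmgcs1 (0.41, adjusted p = 0.0554), Sc5d (0.40, 0.0764) and Idi1 (0.36, 0.0559) were higher in sgElovl1, and Ebp (-0.30, 0.0985) was lower.

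**Figure D5:**
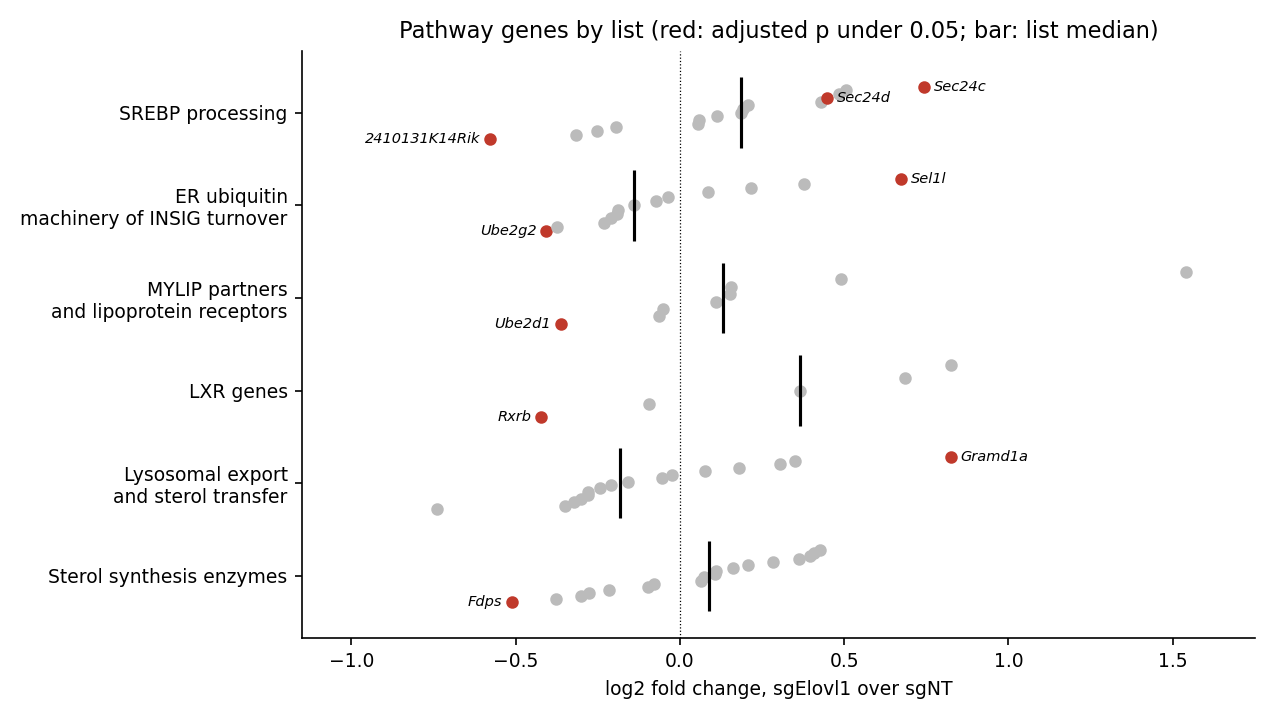
Log2 fold change of sgElovl1 over sgNT for the 75 tested genes of the 6 pathway lists. Red points had an adjusted p under 0.05 and are named, grey points did not, and black bars give the list medians, which lie between -0.18 and 0.37.

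Likeness to a member was measured as the root mean square difference of log2 CPM, centred on each gene's mean, over the 6 libraries and among 10854 named protein-coding genes. Nearest to Insig1 were Trp53inp2 (0.0365), Plekhg3 (0.0680) and Hist1h2bk (0.0898). Nearest to Scap were Tecpr1 (0.0473), Incenp (0.0540) and Foxm1 (0.0665). Npc2 was closest to Plod3 (0.0248), Hax1 (0.0272) and Ergic3 (0.0324), and Srebf2 to Csrnp2 (0.0546), Hist1h4i (0.0754) and Mrtfa (0.0838). Among the members themselves, the profile nearest to Insig1 was that of Scap (0.308), the nearest to Npc2 was that of Stard4 (0.121), and Srebf2 lay about as near to Mylip (0.219) as to Scap (0.223). Each of these 4 members had 3 genes outside the pathway lists with a profile closer than any other member's. The smallest of 10854 distances is likely to lie below the smallest among so few members. The comparison therefore does not tell whether the members resemble each other.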

How the data were processed

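Per the submitters' processing notes and the study's methods, the authors mapped reads from SMARTer-amplified complementary DNA to mm10 with STAR 2.7.7a and quantified genes with RSEM 1.3.1; the annotation release and the strand setting are not given in the sources used here. The deposited tables hold expected counts (not scaled between libraries), TPM (scaled for length) and abundance-weighted gene lengths. Of 55471 gene IDs, 55230 matched GENCODE M21 (GRCm38), which gives the coordinates. Groups came from the sample titles.

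Expected counts were rounded and tested with edgeR 4.0.16 (R 4.3.3): filterByExpr with a minimum count of 10, TMM, robust quasi-likelihood fits with group as the only term, and Benjamini-Hochberg adjustment over 12546 genes at 0.05. CPM are TMM-normalised, and marker sums are CPM without TMM factors. The edgeR p-values set the difference between groups against the spread between these libraries, which mixes pools of 2 tumours with libraries of 1 tumour. Steps were tested on simulated data. Ratios of TPM were compared by exact permutation tests (scipy 1.17.1). Alternatives used DESeq2 1.42.0, limma 3.58.1, other scalings and filters, log2(TPM + 1) and log2(TPM + 0.1), a length offset, a replicate block, and libraries left out.

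The deviations of same-numbered libraries from their group means correlated at 0.21, 0.24 and 0.41, each above 0.1, although the labels name no shared batch. The main tests and the ratio tests were unpaired, and the pairing entered as the replicate block alternative. The members, lists and tests were chosen with earlier results of these data known. Named genes were Elovl1, the members, called genes of the lists (up to 4 per list) and the 3 nearest profiles of called members and Srebf2. Other genes were named after their values were seen.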

Additional observations from a re-analysis of the deposited data

How the results depend on the processing

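Insig1 kept its direction and call under all 18 alternatives, and no other called member did. The count of members called higher, 2 in the main analysis, was 1 with the length offset and 1 with the length offset and replicate block, 4 without library 3 of both groups, and 1 to 3 with a library left out. The count called lower, 1, was 0 on log2(TPM + 1) and 0 on log2(TPM + 0.1), 3 without library 3 of both groups, and 0 to 3 with a library left out. With the replicate block alone, 2 members were called higher and 1 lower, as without it, and 9 pathway genes were called. Among Elovl1, the called members and the pathway genes called in the main analysis, the block ended only the calls of Ube2g2 and Ube2d1. The 9 pathway genes became 16 with DESeq2, 28 without library 3 of both groups, and 2 to 18 with a library left out. Over the whole table, 1084 genes called higher became 659 with the length offset, 1947 without library 3 of both groups, and 279 to 1414 with a library left out. The 643 called lower became 1088 with DESeq2, 162 on log2(TPM + 1), 177 on log2(TPM + 0.1), 2039 without library 3 of both groups, and 42 to 1304 with a library left out. Npc1 reversed to -0.16 with the length offset and to -0.13 with the length offset and replicate block, and ranged from -0.0076 to 0.32 with a library left out. The log2 difference in the ratio of Npc1 to Npc2, 0.37, became 0.63 on TMM-normalised CPM, which is not scaled for length. Without a filter on low counts the median of all genes moved to 0.12. Other causes of these shifts were not tested. With 3 libraries a group, the interval of Mylip, the member with the fewest counts, still spans both directions.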
